A study of Mus musculus with 10 samples.

Results

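The genes described here encode the proteins of the mitochondrial ribosome. They were taken from the authors' deposited table as every row whose symbol is Mrpl or Mrps followed by a digit and whose mean normalized count is above 0. This gave 76 genes of the 23337 listed, 47 with the large subunit symbol Mrpl and 29 with the small subunit symbol Mrps. Cardiomyocytes, which are the muscle cells that contract the heart, were taken from wild-type mice. One group had received AAV9-cTNT-GFP and the other AAV9-cTNT-dnMKL1-GFP, with 5 biological replicates each. The virus dose was 5e+08 viral genomes per gram, injected on postnatal day 1, and cells were collected on postnatal day 14 by collagenase perfusion and fluorescence-activated sorting. In both vectors the cTNT promoter, that of cardiac troponin T, drives expression in cardiac muscle cells, and both carry GFP. The dnMKL1 vector adds a dominant-negative form of MKL1, a coactivator of serum response factor. The comparison asks how transcript levels differ between cardiomyocytes given dnMKL1 with GFP and those given GFP alone.

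Mitochondria have their own ribosome, which translates the few messenger RNAs made from mitochondrial DNA. Those messages encode core subunits of the respiratory chain and of ATP synthase, so the organelle's ribosome is needed for oxidative energy supply. All of its proteins are encoded in the nucleus, made in the cytosol, imported and assembled on the mitochondrial ribosomal RNAs. The small subunit decodes the message and the large subunit joins the amino acids. The heart is rich in mitochondria, and inherited defects in some of these genes cause cardiomyopathy in humans.

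Promoters are shown because the genes moved together and because the factors NRF1 (nuclear respiratory factor 1) and the ETS-family factor GABP are textbook activators of nuclear genes for mitochondrial proteins. The RefSeq promoter table on GRCm38.p6 holds 67 of the 76 genes. Each window runs from 250 bases before to 50 bases after the start of the gene. The letters searched, on both strands, were GCGCNTGCG for NRF1, CCGGAAG for ETS factors and AAGATGGCG for YY1, and the CArG box, the site of serum response factor, was searched by its consensus. ETS and YY1 matches can share the letters AAG. The 4 sequences printed come from called genes, 2 with the largest Wald statistics among those holding the NRF1 letters and 2 with the largest among those holding no motif searched. Sequences read 5′ to 3′ on the gene's strand, with motif letters in capitals. Mrps9 is at chr1:42850983-42851236 on the plus strand, Mrpl39 at chr16:84735245-84735494 on the minus strand, Mrps2 at chr2:28467816-28468065 on the plus strand and Mrps31 at chr8:22411090-22411339 on the plus strand.
Mrps9: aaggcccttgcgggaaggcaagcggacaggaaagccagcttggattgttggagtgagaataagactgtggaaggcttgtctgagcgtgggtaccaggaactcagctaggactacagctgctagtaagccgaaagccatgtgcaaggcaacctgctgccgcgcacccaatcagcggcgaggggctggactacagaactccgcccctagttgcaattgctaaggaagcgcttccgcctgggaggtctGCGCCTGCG
Mrpl39: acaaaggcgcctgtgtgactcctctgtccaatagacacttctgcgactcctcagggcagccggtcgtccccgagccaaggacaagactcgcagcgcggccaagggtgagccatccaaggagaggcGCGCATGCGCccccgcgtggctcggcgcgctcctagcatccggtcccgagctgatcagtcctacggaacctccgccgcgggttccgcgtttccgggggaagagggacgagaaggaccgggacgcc
Mrps2: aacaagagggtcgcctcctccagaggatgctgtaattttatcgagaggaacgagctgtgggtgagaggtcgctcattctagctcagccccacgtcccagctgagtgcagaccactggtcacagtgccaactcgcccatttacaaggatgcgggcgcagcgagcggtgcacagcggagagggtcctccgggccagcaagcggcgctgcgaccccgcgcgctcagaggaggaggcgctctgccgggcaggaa
Mrps31: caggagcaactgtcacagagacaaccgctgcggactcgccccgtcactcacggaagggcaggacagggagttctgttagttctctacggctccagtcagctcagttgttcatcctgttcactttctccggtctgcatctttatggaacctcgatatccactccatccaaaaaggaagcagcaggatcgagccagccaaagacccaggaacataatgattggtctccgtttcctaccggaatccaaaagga
In Mrps9 the NRF1 letters lie across the start, from -5 to 4, and in Mrpl39 a pair of overlapping matches lies between -125 and -116. The 67 genes have 73 windows, and a gene was counted when any of its windows matched. The NRF1 letters were found in 17 of 67 genes (25.4%), against 14.4% of 9931 tested genes and 7.12% of all 27025 genes with a window. ETS letters were in 24 (35.8%, against 18.5% and 9.93%). YY1 letters were in 8 (11.9%, against 3.24% and 1.64%). No CArG box was found in any window of the 67 genes, against 1.66% of tested genes and 1.81% of all genes with a window. At least 1 of the 4 motifs was in 41 genes (61.2%, against 32.9% of tested genes), and 8 held at least 2 of the NRF1, ETS and YY1 motifs. Median GC content of the windows was 58.0% in these genes and 60.7% in tested genes.

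**Figure D1:**
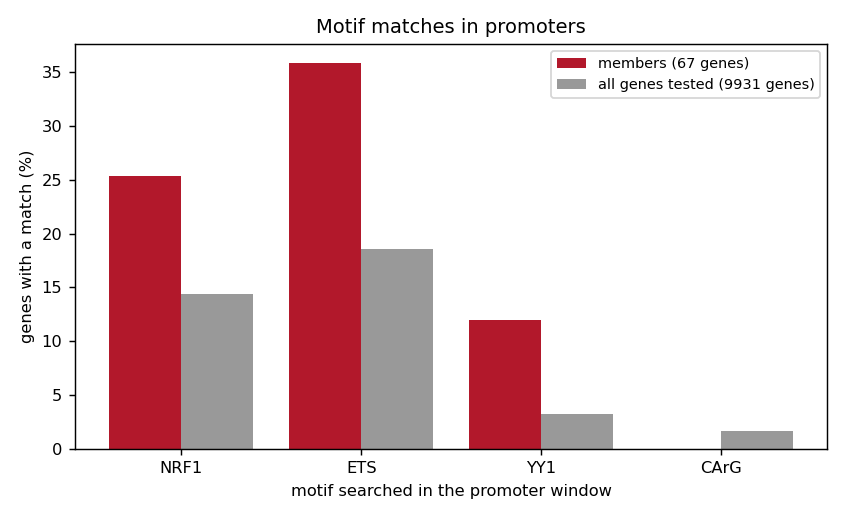
Share of genes, in percent, with a match to each motif in a promoter window, for 67 mitochondrial ribosomal protein genes (red) and 9931 tested genes (grey). NRF1, ETS and YY1 bars are higher for the ribosomal genes, at 25.4%, 35.8% and 11.9%. Their CArG bar is at 0, against 1.66% of tested genes, a share too low for the 2 to be told apart in 67 genes.

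Median fold changes with and without each motif were close, and their differences were not tested. From the authors' deposited table the median log2 value was -0.50 for the 17 genes with NRF1 letters and -0.54 for the 50 without. For ETS letters the medians from the authors' deposited table were -0.48 with and -0.56 without. With and without YY1 letters the medians from the authors' deposited table were both -0.53. Mrps9 and Mrps2, printed above, had the lowest log2 fold changes of all members, and only the first holds a searched motif.

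Library totals were estimated at 8803005 to 17123500 counts in the GFP group and at 8835151 to 17228537 in the dnMKL1 group. In the authors' deposited table Mkl1, the targeted gene, had a log2 fold change of 9.80 ± 0.15 (SE), and directions are read from it: negative values mean lower in dnMKL1 libraries. Group means are given as implied means, computed from each gene's mean over all libraries and its fold change, and values of single libraries were not analysed here. Errors are therefore the deposited standard errors (SE), which carry the spread between the 5 libraries of each group. The cardiomyocyte label was checked against its markers: all 10 listed (Myh6, Tnnt2, Actc1 and others) had base means, that is normalized counts averaged over all libraries, of at least 10438, while no marker listed for other cell types exceeded 2281 (Col3a1).

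Transcripts of the mitochondrial ribosome were lower in dnMKL1 cardiomyocytes across nearly the whole set. Of the 76 genes, all passed the authors' filter on low values, 67 fell at an adjusted p under 0.05, none rose and 9 were not called. By unadjusted p under 0.05 the count was 70, all negative. Over all genes the shares were 17.4% lower and 16.6% higher of 14056 tested. Among the 7640 tested genes in the members' own range of base means, 24.1% were lower and 18.8% higher. From the authors' deposited table the members' median log2 fold change was -0.55, against 0.02 for all genes tested and -0.02 in that range. Their summed implied means went from 74016 to 49244 normalized counts, so the dnMKL1 sum was 66.5% of the GFP sum. In such bulk samples fewer cells of a type and less RNA per cell cannot be told apart.

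The size of the difference depends on the scale. When summed normalized counts are made equal between the groups, every log2 fold change gains 0.29, and the median of all genes tested moves from 0.02 to 0.31. On that scale 39 members were lower and 3 higher (Mrpl33, Mrpl54 and Mrps6), with a median of -0.26, against 6.6% lower and 40.4% higher over all genes. The distance between the members' median and the median of all genes is the same on both scales. Summed implied means in dnMKL1 libraries were 81.8% of GFP over all genes tested. Over tested genes in the members' base mean range they were 95.1% of GFP, so the 0.29 comes mostly from genes outside that range.

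**Figure D2:**
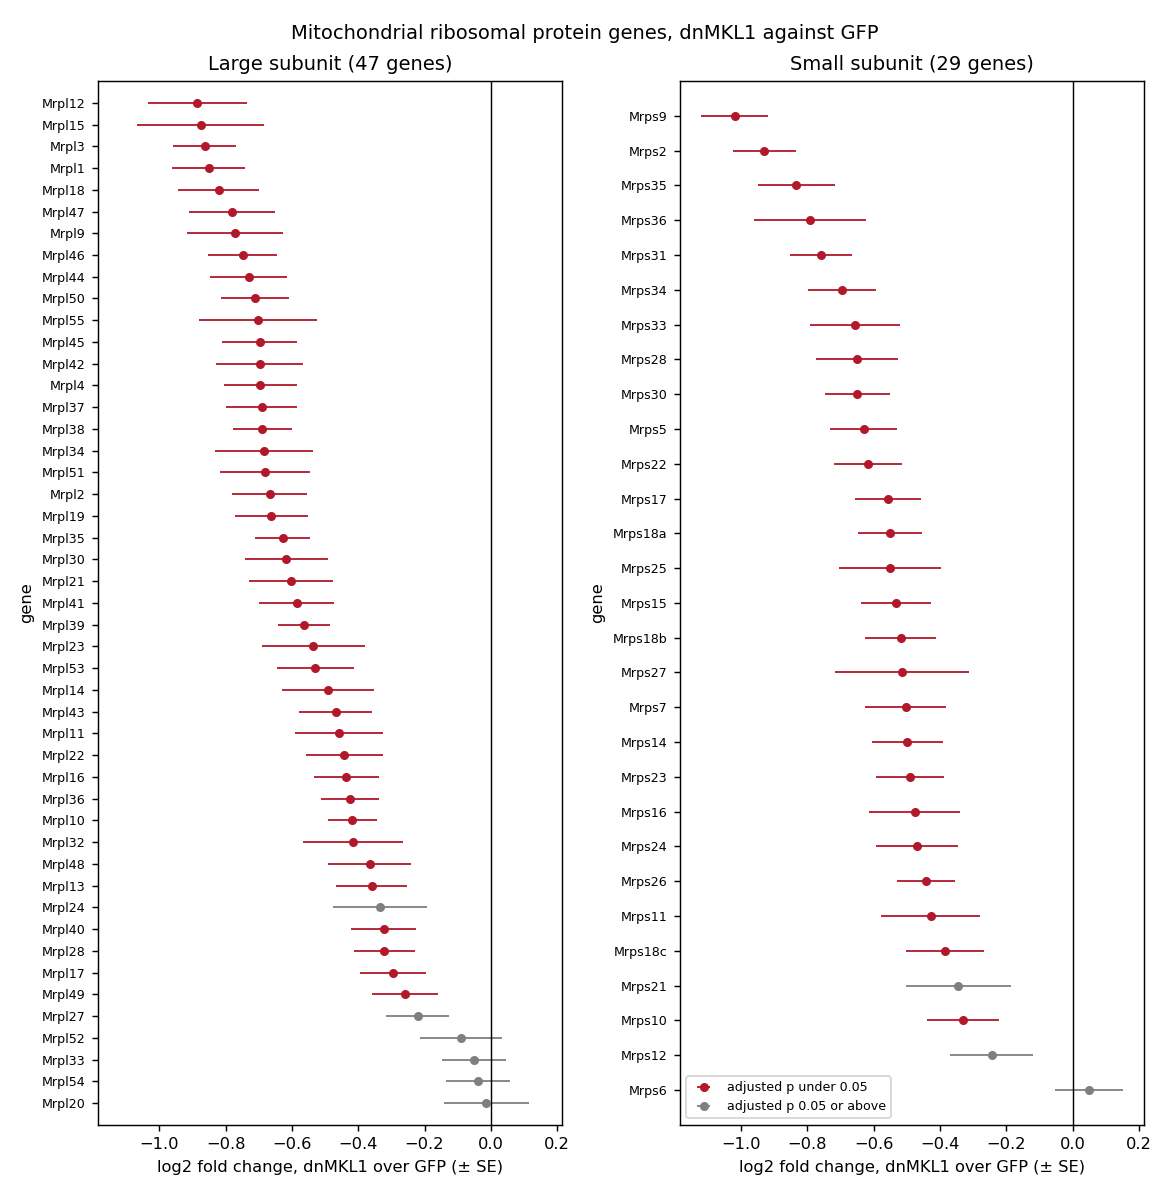
Log2 fold change (dnMKL1 over GFP, x axis) of each mitochondrial ribosomal protein gene with its deposited SE as a bar, large subunit left and small subunit right, from lowest at the top to highest at the bottom. Red points passed the adjusted p threshold; all but Mrps6 lie below 0, from -1.02 for Mrps9 to 0.05 for Mrps6, and under total-count scaling Mrpl20, Mrpl27, Mrpl33, Mrpl49, Mrpl52, Mrpl54 and Mrps12 move above 0.

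Markers of other cells moved with the groups in part. Over all genes tested 17.4% were lower and 16.6% higher. The cardiomyocyte markers were called lower for 6 of 10, with a summed level in dnMKL1 libraries of 58.7% of that in GFP libraries and a median log2 fold change of -0.45. Of 10 endothelial markers none was called, and their sum was 3448 in GFP and 3561 in dnMKL1 libraries. Col1a1, Col1a2 and Col3a1 rose among 10 fibroblast markers, and the summed level went from 3604 to 4983. Cspg4 and Myh11 rose among 6 mural markers, whose sum went from 1422 to 3100. Cspg4, with the highest base mean of the 6 (1260) and a log2 fold change of 2.01, weighs most in that sum. Rgs5, Kcnj8, Pdgfrb and Notch3 were not called, with 0.01, 0.03, 0.18 and 0.45 in the authors' deposited table. Cd68 rose among 6 macrophage markers tested of 8 listed, whose sum was 150 and 136. Of these lists Fcgr1, a macrophage marker, had the lowest base mean, at 1.19. Their part in the result for the ribosomal genes was not tested.

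Both subunits were lower in most of their genes. In the large subunit 41 of 47 genes were called lower, and in the small subunit 26 of 29. The share lower was 17.4% over all genes tested and 24.1% over those in the members' base mean range. On the total-count scale 25 large and 14 small subunit genes were lower, against 6.6% of all genes tested. Medians from the authors' deposited table were -0.59 for the large and -0.53 for the small subunit, a difference of -0.05. Means weighted by the inverse squared SE were -0.51 for the large and -0.56 for the small subunit, so the order of the subunits turns with the summary used. No test of this difference could be made without values per library. The summed implied means fell to 66.2% of GFP for the large and 67.4% for the small subunit. Some symbols do not match the subunit in which structures place the protein: the products of Mrps18a and Mrps30 belong to the large subunit, and that of Mrps36 is now assigned to the 2-oxoglutarate dehydrogenase complex. With that assignment 43 of 49 large and 23 of 26 small subunit genes were lower, with medians of -0.59 and -0.52.

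The small subunit held the gene with the lowest log2 fold change. Mrps9 encodes uS9m, the counterpart of bacterial S9, whose tail reaches the transfer RNA in the peptidyl site. It lies at chr1:42851233-42905683 (GRCm38, plus strand, 11 exons), and its implied mean went from 1176 to 580 normalized counts. The authors' deposited table gives it a log2 fold change of -1.02 ± 0.10 (SE, adjusted p = 1.89e-21), so the dnMKL1 level was 49.3% of GFP. Mrps2 (uS2m, near the path of the messenger RNA) went from 887 to 466, with -0.93 ± 0.09 (SE, adjusted p = 1.25e-20) in the authors' deposited table. Mrps35, a protein without a bacterial counterpart, went from 1590 to 893, and the authors' deposited table has -0.83 ± 0.12 (SE, adjusted p = 4.24e-11). The dnMKL1 levels of the 3 genes were between 49.3% and 56.1% of GFP.

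The next lowest small subunit genes were Mrps36, Mrps31 and Mrps34. Mrps36 went from 255 to 147, with -0.79 ± 0.17 (SE) in the authors' deposited table. Mrps31 went from 810 to 478, with -0.76 ± 0.09 (SE) in the authors' deposited table. Mrps34, whose product is needed for a stable small subunit, went from 882 to 545 and had -0.69 ± 0.10 (SE) in the authors' deposited table. All 3 were called lower, and the last shares exon positions with Nme3 and Mapk8ip3.

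At the other end of the small subunit, Mrps6, Mrps12 and Mrps10 had the highest values. Mrps6 encodes bS6m, the partner of S18 in bacterial ribosomes, and its implied means were 550 in GFP and 569 in dnMKL1 libraries. It was the only member with a positive value in the authors' deposited table (0.05 ± 0.10, SE, adjusted p = 0.777, 95% interval -0.15 to 0.25), but its exons overlap those of Slc5a3 on the same strand, so its reads cannot be assigned with certainty. Mrps12 (uS12m, at the decoding centre) had 516 and 436 and was not called (-0.24 ± 0.13, SE, adjusted p = 0.123, in the authors' deposited table). Mrps10 fell from 393 to 313 (-0.33 ± 0.11, SE, adjusted p = 0.00965, in the authors' deposited table). Mrps21 was the only other small subunit gene not called, with -0.34 ± 0.16 (SE, adjusted p = 0.0797) in the authors' deposited table.

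Among large subunit genes Mrpl12 had the lowest log2 fold change. Its product, bL12m, forms the stalk that recruits translation factors. At chr11:120484613-120489065 (GRCm38, plus strand, 5 exons), Mrpl12 had implied means of 3279 in GFP and 1776 in dnMKL1 libraries, 54.1% of GFP, and the authors' deposited table gives -0.88 ± 0.15 (SE, adjusted p = 4.91e-08). Mrpl15 (uL15m, a ribosomal RNA binding protein inside the subunit) went from 1629 to 889, with -0.87 ± 0.19 (SE, adjusted p = 4.32e-05) in the authors' deposited table. Mrpl3 (uL3m, close to the catalytic centre) went from 1740 to 957 with the smaller error, -0.86 ± 0.09 (SE, adjusted p = 6.79e-18, in the authors' deposited table). The 3 values differ by less than their SEs. Mrpl12 and Mrpl3 share exon positions with other annotated genes.

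Mrpl1, Mrpl18 and Mrpl47 followed. Mrpl1, which forms the mobile arm beside the exit site for transfer RNA, went from 1005 to 557 (-0.85 ± 0.11, SE, in the authors' deposited table). Mrpl18, of the central protuberance, went from 2300 to 1302 (-0.82 ± 0.12, SE, in the authors' deposited table). Mrpl47 (uL29m, at the tunnel exit) went from 365 to 213 (-0.78 ± 0.13, SE, in the authors' deposited table). All of them were called lower, and 8 members of both subunits together were under -0.8. Mrpl18 shares exon positions with Tcp1, and Mrpl47 with Actl6a and Ndufb5, all on the other strand. Ndufb5 had a base mean of 6242, against 289 for Mrpl47, and fell (-0.62 in the authors' deposited table).

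Mrpl20, Mrpl54 and Mrpl33 had the highest values of the large subunit, and none of them was called. Mrpl20 encodes bL20m, an early-binding protein in bacterial assembly, and had 582 in GFP and 576 in dnMKL1 libraries (-0.01 ± 0.13, SE, adjusted p = 0.956, 95% interval -0.27 to 0.24, in the authors' deposited table). Mrpl54, at the base of the stalk, had 537 and 523 (-0.04 ± 0.10, SE, adjusted p = 0.824, in the authors' deposited table). Mrpl33 had 1133 and 1094 (-0.05 ± 0.10, SE, adjusted p = 0.749, in the authors' deposited table). Mrpl52, Mrpl27 and Mrpl24 were the other large subunit genes not called, with -0.09, -0.22 and -0.34 in the authors' deposited table and adjusted p-values of 0.641, 0.0539 and 0.0520.

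By position in the ribosome, each of the small groups examined held a majority of genes called lower, as did the whole set. The share lower was 88.2% over all 76 members and 17.4% over all genes tested. Of the groups by position only the central protuberance, at 100%, was above the members' share. Of the 5 stalk genes 4 fell, and Mrpl12 (-0.88) and Mrpl54 (-0.04) mark the ends of the range in the authors' deposited table, with Mrpl10, Mrpl11 and Mrpl53 between -0.42 and -0.53. All 6 genes of the central protuberance fell, with a median of -0.70 from the authors' deposited table: Mrpl18, Mrpl46, Mrpl55, Mrpl38, Mrpl48 and Mrpl40, from -0.82 to -0.32. Around the peptidyl transferase centre Mrpl3, Mrpl2 and Mrpl16 fell, and Mrpl27, whose product reaches into that centre in bacteria, was not called. At the exit of the peptide tunnel Mrpl47, Mrpl44, Mrpl45, Mrpl23 and Mrpl22 fell, with Mrpl24 not called and a median of -0.62 over the 6 from the authors' deposited table. Of 5 genes at the decoding site and messenger path, Mrps2, Mrps5, Mrps7 and Mrps24 fell and Mrps12 did not pass. On the total-count scale the calls lower were 1 of 5 for the stalk, with Mrpl54 called higher, 4 of 6 for the central protuberance, 2 of 4 for the catalytic centre, 3 of 6 for the tunnel exit and 2 of 5 for the decoding site. On that scale 39 of all 76 members and 6.6% of all genes tested were lower.

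The 3 paralogues of S18, which occupy different sites of the ribosome, all fell, as did 88.2% of all members. In the authors' deposited table Mrps18a had -0.55 ± 0.10 (SE), Mrps18b had -0.52 ± 0.11 (SE) and Mrps18c had -0.39 ± 0.12 (SE). Their values lie close together, with implied means of 920 and 628 for the first, 370 and 259 for the next and 505 and 387 for the last. On the total-count scale only Mrps18a was called lower, with adjusted p-values of 0.0612 for Mrps18b and 0.528 for Mrps18c. Exons of Mrps18b and Mrps18c overlap other annotated genes.

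Of the members, Mrpl3, Mrpl44, Mrps14 and Mrps22 are genes in which inherited defects are known to cause cardiomyopathy in humans. All 4 were called lower, as were 88.2% of all members. Mrpl44, at the tunnel exit, went from 955 to 576 (-0.73 ± 0.12, SE, adjusted p = 5.97e-09, in the authors' deposited table). Mrps22, without a bacterial counterpart, went from 542 to 353 (-0.62 ± 0.10, SE, adjusted p = 2.31e-08, in the authors' deposited table). Mrps14 went from 1104 to 781 (-0.50 ± 0.11, SE, adjusted p = 2.75e-05, in the authors' deposited table), and it is the only gene of the 4 that was no longer called on the total-count scale (adjusted p = 0.0938).

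By their unified names, 46 members are counterparts of a bacterial ribosomal protein and the other 30 carry names for mitochondria-specific proteins. The 30 include Mrps18a and Mrps18b, which are related to bacterial S18 but named mL66 and mS40, and Mrps36. In the bacterial set 39 of 46 fell, with a median of -0.50 from the authors' deposited table, and in the mitochondria-specific set 28 of 30, with a median of -0.60. These shares, 84.8% and 93.3%, lie on either side of the 88.2% of all members, where 17.4% of all genes tested were lower. Mrpl52 and Mrpl54 were the mitochondria-specific genes not called. On the total-count scale 21 bacterial and 18 mitochondria-specific genes were lower, against 6.6% of all genes tested. No test of the difference between these sets was made.

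Levels between genes were compared per kilobase of transcript, from the longest principal coding transcript in GENCODE M21 on GRCm38. In the large subunit the most abundant transcripts were Mrpl42, with a base mean of 5699 per kilobase, Mrpl33 with 2328 and Mrpl12 with 1921, and the scarcest were Mrpl17 with 74.0, Mrpl47 with 85.9 and Mrpl19 with 99.2. In the small subunit Mrps23, with 1212 per kilobase, Mrps18a with 876 and Mrps28 with 858 were the most abundant, and Mrps5 with 97.9, Mrps25 with 98.1 and Mrps26 with 145 the scarcest. The order depends on the length used: per kilobase of coding sequence Mrpl42 and Mrps23 stayed first in their subunits (8910 and 3040), but Mrps18a and Mrps28 ranked 8 and 10. The least abundant genes have annotated transcripts far longer than their coding part, such as Mrpl17 with 7300 bases of which 528 code. Mrpl42, the most abundant by either length, had implied means of 4695 and 2896 and fell (-0.70 ± 0.13, SE, in the authors' deposited table), while Mrpl33, next by both, did not pass.

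**Figure D3:**
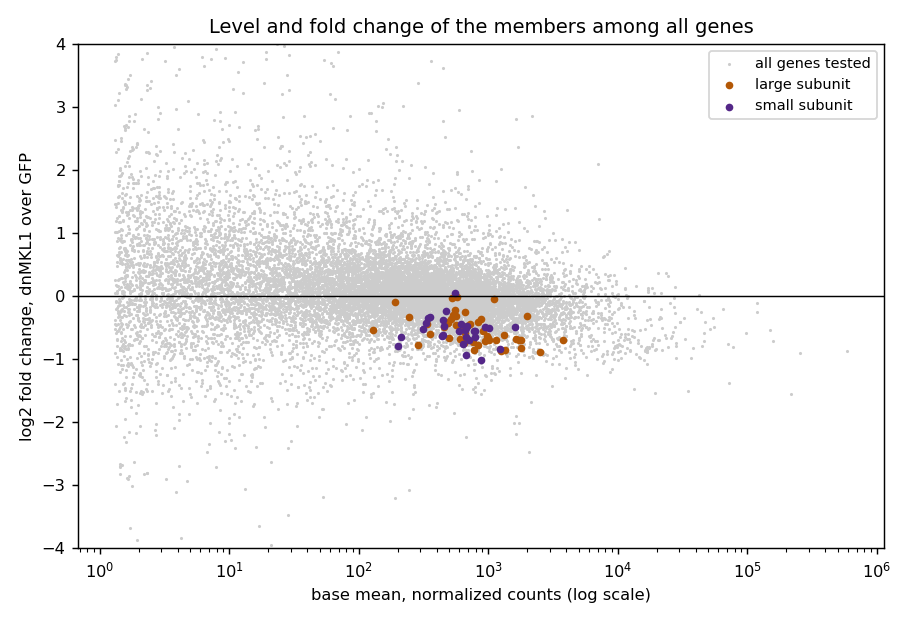
Base mean in normalized counts (log x axis) against log2 fold change for all genes tested (grey) and for large (orange) and small (violet) subunit genes. The ribosomal genes lie between base means of 130 and 3795 and all but Mrps6 lie below 0; 33 tested genes fall outside the plotted range of -4 to 4.

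Within the set, genes with longer coding sequences and higher base means had lower log2 fold changes. Over the 76 genes Spearman's rho of the authors' deposited log2 values was -0.44 with coding length, -0.41 with base mean, -0.31 with transcript length, 0.17 with transcript GC content and 0.01 with base mean per kilobase. These are descriptions across genes of the same libraries, and genes are not independent replicates. When the members are split into 3 bins by coding length, 8 of the 9 genes not called are among the 25 shortest (195 to 477 bases), 1 is among the middle 25 (480 to 753) and none is among the 26 longest (756 to 1326). The medians from the authors' deposited table were -0.49, -0.46 and -0.69 in that order. The bin with the longest, which includes Mrps9, Mrps2, Mrps35, Mrpl3, Mrpl1 and Mrpl15, holds 6 of the 8 genes under -0.8. Short transcripts with low values were also present: Mrps36 has 306 coding bases and Mrpl34 276, and both fell (-0.79 and -0.68 in the authors' deposited table). Length moves with the result, and its part was not tested.

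**Figure D4:**
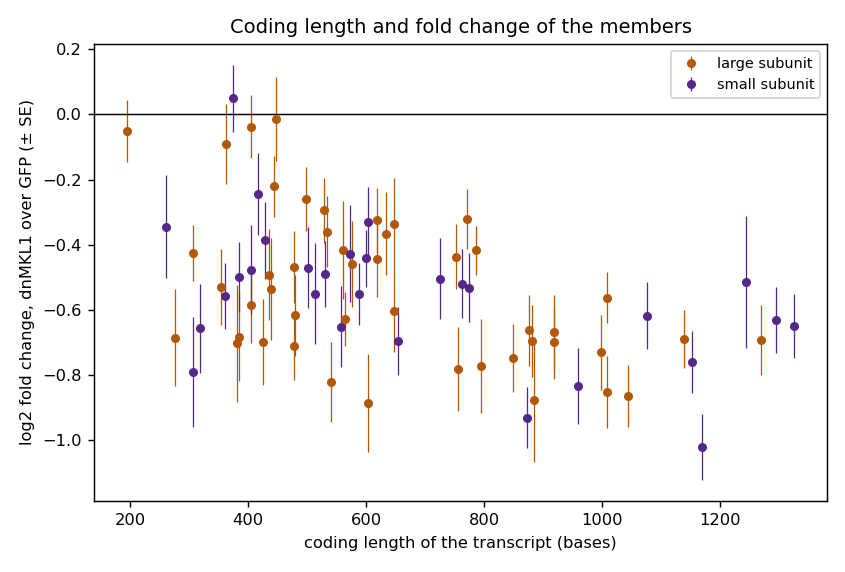
Coding length in bases (x axis) against log2 fold change with its SE for the 76 genes, large subunit in orange and small subunit in violet. Genes near 0 lie at the left, and from 756 bases upward every gene is below 0 and called, whereas genes of up to 477 bases run from -0.79 for Mrps36 to 0.05 for Mrps6.

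Most of the other proteins of the mitochondrial ribosome, and most genes listed for its assembly and its work, were also lower. Over all genes tested 17.4% were lower and 16.6% higher. Of 7 mitoribosomal proteins with other symbols, Ptcd3, Gadd45gip1, Ict1 and Chchd1 fell. Ptcd3, a small subunit protein, went from 3470 to 1807, with -0.94 ± 0.10 (SE, adjusted p = 4.84e-19) in the authors' deposited table. Gadd45gip1, Ict1 and Chchd1 had -0.68, -0.44 and -0.43 in the authors' deposited table. Dap3 (-0.21, adjusted p = 0.0949), Aurkaip1 (-0.15, adjusted p = 0.196) and Mrp63 (-0.09, adjusted p = 0.566) did not pass in the authors' deposited table. With these 7 the ribosome's proteins came to 71 lower of 83, with a median of -0.54, and on the total-count scale only Ptcd3 of the 7 was called lower.

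Of 25 genes listed for ribosome assembly and modification of ribosomal RNA, 24 were in the table and 20 of them fell. The share lower over all genes tested was 17.4%. The largest statistics of the list belonged to Wbscr16 (also called Rcc1l), Fastkd2, Rnmtl1 (Mrm3), Mettl17 and Eral1. Rnmtl1, a methyltransferase of the large ribosomal RNA, went from 532 to 260, with -1.03 ± 0.14 (SE, adjusted p = 2.42e-11) in the authors' deposited table. Dhx30, a helicase of the same list, was not called, with -0.04 ± 0.09 (SE, adjusted p = 0.806) in the authors' deposited table. The list's median from the authors' deposited table was -0.42, and on the total-count scale 7 were lower and 1 higher.

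Translation factors fell in 10 of 14 genes, where 17.4% of all genes tested were lower. The median of the 14 was -0.60 from the authors' deposited table. Tufm, the elongation factor that delivers transfer RNA, went from 2855 to 1473, with -0.95 ± 0.12 (SE, adjusted p = 5.19e-14) in the authors' deposited table. Oxa1l, which inserts new proteins into the inner membrane, went from 1893 to 1014, with -0.90 ± 0.09 (SE, adjusted p = 3.10e-19) in the authors' deposited table. Mtif2 (initiation), Mrrf (recycling) and Gfm1 (elongation) had -0.74, -0.72 and -0.65 in the authors' deposited table and were called lower. Mitochondrial transcription and RNA genes fell in 13 of 18, beside the same 17.4% over all genes. Lrpprc, which stabilises mitochondrial messenger RNA, went from 5485 to 2497, with -1.14 ± 0.11 (SE, adjusted p = 5.04e-22) in the authors' deposited table. Supv3l1, Tfam, Peo1 (the helicase Twinkle) and Grsf1 followed with -0.64, -0.72, -0.58 and -0.53 in the authors' deposited table, all called lower. Mitochondrial DNA-encoded proteins and ribosomal RNAs were not analysed here.

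Of 79 nuclear genes for respiratory chain and ATP synthase subunits, 71 fell and 2 rose, with a median of -0.64 from the authors' deposited table. Over all genes tested 17.4% were lower and 16.6% higher. Atp5a1, Sdha and Ndufa9 fell, with -0.80, -0.83 and -0.80 in the authors' deposited table, and Cox6a1 and Cox8a rose, with 0.87 each. Cytosolic ribosomal protein genes were mostly not called: 9 of 80 tested were lower and 2 higher, with a median of -0.05 from the authors' deposited table. Both shares are below those over all genes. Base means in this list had a median of 346, against 666 for the 76 members, and went down to 0.72 for Rps27 and 3.76 for Rpl30. How fully these transcripts were counted was not examined. On the total-count scale, where 40.4% of all genes are called higher, 1 was lower and 41 higher. Rpl3l, a form of Rpl3 found in striated muscle, had the largest statistic of that list (-1.40 ± 0.24, SE, adjusted p = 1.20e-07, in the authors' deposited table). Rpl7l1, Rpl14 and Rpl28 were lower, with -0.25, -0.22 and -0.32, and Rps27l was higher, with 0.23, in the authors' deposited table. The difference between the mitochondrial and cytosolic lists was not tested.

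**Figure D5:**
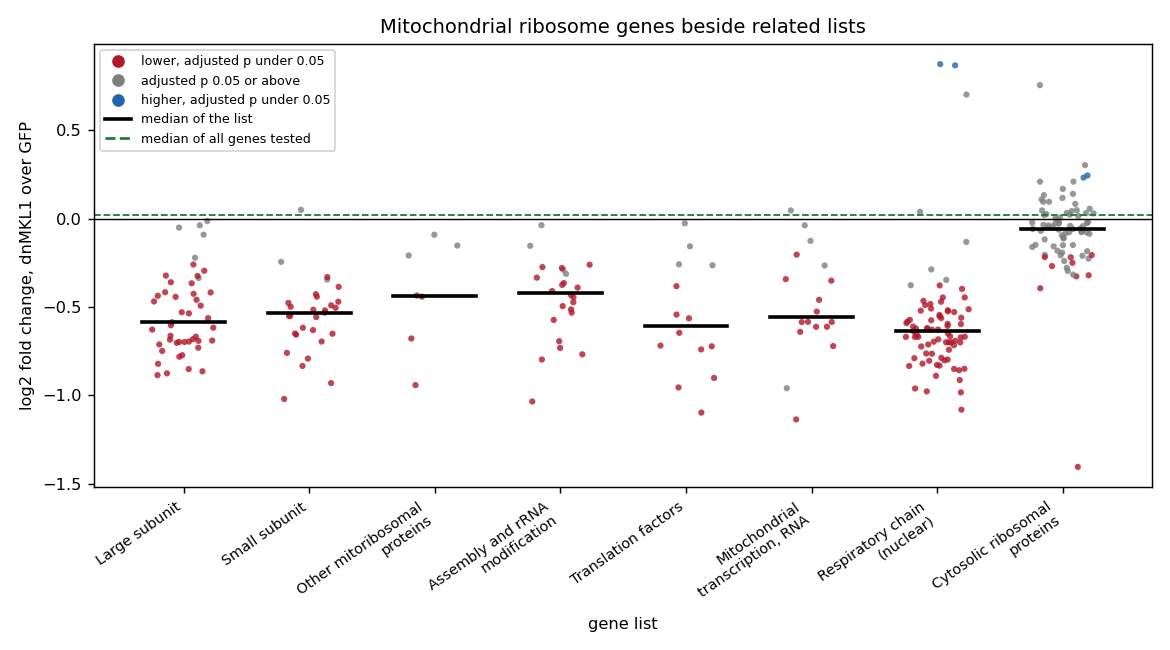
Log2 fold change (y axis) of each gene in the mitochondrial ribosomal lists and in related lists; black bars are list medians and the dashed line is the median of all genes tested (0.02), and 1 point per gene is coloured by its call. Medians of the mitochondrial lists lie between -0.42 and -0.64 and that of cytosolic ribosomal proteins at -0.05, a list in which 41 genes are called higher under total-count scaling, as are 40.4% of all genes.

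Transcripts of the factors whose motifs were searched, and of coactivators of mitochondrial genes, were mixed. Nrf1 had 243 and 253 (0.06 ± 0.11, SE, adjusted p = 0.745, in the authors' deposited table), and Yy1 had 96.9 and 94.3 (-0.04 ± 0.14, SE, adjusted p = 0.880, in the authors' deposited table). Srf, whose factor binds CArG boxes, fell from 1082 to 620 (-0.80 ± 0.10, SE, adjusted p = 2.55e-13, in the authors' deposited table). Gabpa, the DNA-binding subunit of GABP, fell from 1067 to 817 (-0.39 ± 0.08, SE, adjusted p = 2.56e-05, in the authors' deposited table). The GABP genes Gabpb1 and Gabpb2 were not called, with 0.02 and 0.13 in the authors' deposited table. Ppargc1b, a coactivator of mitochondrial genes, fell from 1182 to 413 (-1.52 ± 0.17, SE, adjusted p = 9.91e-17, in the authors' deposited table). Ppargc1a, another such coactivator, fell from 2741 to 2178 (-0.33 ± 0.10, SE, adjusted p = 0.00661, in the authors' deposited table). The nuclear receptors Esrra, Esrrb and Ppara fell, with -0.69, -0.48 and -0.78 in the authors' deposited table. Esrrg, Pprc1 and Mycn of the same list were not called, with 0.03, 0.02 and 0.03 in the authors' deposited table. On the total-count scale the values of Gabpa and Ppargc1a were -0.10 and -0.04. Myc rose from 41.4 to 96.7 (1.22 ± 0.31, SE, adjusted p = 0.000406, in the authors' deposited table). Of the 14 genes listed as regulators, which do not include Srf, 6 fell and 1 rose, against 17.4% and 16.6% of all genes. On the total-count scale 3 were lower and 6 higher, against 6.6% and 40.4% of all genes.

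All 76 genes were found in GENCODE M21 on GRCm38, on 17 chromosomes, with at most 10 on any of them. Since the use of strand in counting is not given in the sources used here, overlapping genes are uncertain: 32 members share exon positions with another annotated gene, 27 on the other strand and 8 on the same strand. Mrpl46 and Mrps11 overlap each other. Among the 44 members with no such overlap, 39 were lower and none higher, with a median of -0.60 from the authors' deposited table. That share, 88.6%, is close to the 88.2% of all members, where 17.4% of all genes tested were lower.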

How the data were processed

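RNA was sequenced from sorted cardiomyocytes of 5 GFP and 5 dnMKL1 samples, grouped by their titles. Per the labels' protocols, a SMART-Seq kit turned 10 ng of total RNA into cDNA, amplified over 8 PCR cycles, and 500 pg of cDNA entered a Nextera XT library. Per the submitters' processing notes, the tools were CASAVA 1.8, STAR 2.5.3a and featureCounts of Subread 1.5.2, and the build was mm10. The gene annotation, and whether counting used strand, are not given in the sources used here. The single table is a group comparison made by the authors; its columns, per the file headers, are those that DESeq2 writes. The deposited base mean is a signal, the normalized count averaged over the 10 libraries. The deposited fold change and its SE are log2 values. The Wald statistic deposited beside them is a score, the log2 fold change over its SE (largest gap 1.14e-05). The deposited p-value was adjusted by the authors with the Benjamini-Hochberg method over 14056 genes, the lowest base mean among them being 1.31 (largest gap on recomputing 1.44e-07).

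The plan named a count test for the case that counts per sample were in the file. They were not used here, and the authors' adjusted p under 0.05 was taken as the call, the fallback in that plan. SDs over replicates were not computed. The implied GFP mean is 2 times the base mean divided by 1 plus the linear fold change, and the implied dnMKL1 mean is that times the fold change. Library totals were estimated from size factors recovered from genes with 1 read in 1 library. Tables were handled with pandas 2.3.3 and scipy 1.17.1 (Python 3.11.15), and figures were drawn with matplotlib 3.10.9. The adjustment and the adding of a constant to every fold change were tested on simulated data, and the list summaries were not. Members and gene lists were chosen with earlier results of these data known, so they are described by counts and medians and no list was tested. Genes named in full are, per subunit, the 6 lowest and 3 highest log2 fold changes and the 3 most and 3 least abundant per kilobase, with the genes of the role groups. In related lists they are the 5 with the largest Wald statistics or, in lists of under 8 genes, every gene. The not-called genes Dhx30, Mrps21, Mrpl52, Mrpl27 and Mrpl24, and also Mrpl34, were named after their values were seen. So were the factors of the motifs searched, with Gabpb1 and Gabpb2, and Ppargc1a, Ppargc1b, Pprc1, Esrra, Esrrb, Esrrg, Ppara, Myc and Mycn. Alternatives covered the adjusted p threshold, its gene universe, base mean minimums, a minimum fold change, the scaling and the assignment of symbols.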

Additional observations from a re-analysis of the deposited data

How the results depend on the processing

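Scaling to equal summed counts had the largest effect. On that scale 42 members were called (39 lower, 3 higher) instead of 67, 27 in the large and 15 in the small subunit, and the median log2 fold change was -0.26. The calls were 1 among mitoribosomal proteins with other symbols, 8 in the assembly list and 42 among cytosolic ribosomal proteins. Values turned positive for Mrpl20 (0.27), Mrpl54 (0.25), Mrpl33 (0.24), Mrpl52 (0.20), Mrpl27 (0.0674), Mrps12 (0.0439) and Mrpl49 (0.0289); of these only Mrpl49 had been called. This follows from adding 0.29 to every value. With an absolute log2 fold change of at least 0.5, 27 large subunit genes were called, and at an adjusted p under 0.01, 4 cytosolic ribosomal protein genes. The other 42 counts stayed within 1.5 times of the reported count. For the members, base mean minimums of 10 and 100 and the removal of pseudogene rows dropped no gene. Those member counts could not change and carry no weight. Under the alternatives other than total-count scaling the members' central log2 fold change lay between -0.55 and -0.53. The difference in medians, large minus small, lay between -0.07 and -0.05 under all alternatives tried. Most of them could not move it: both scalings add a constant to every gene, and the filters dropped no member. Only the added proteins and the assignment by structure could. With weighted means the order of the subunits turned. At an adjusted p under 0.01, 6 single members lost their call, and 28 did on the total-count scale.

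No paired analysis was possible because the table holds no values per library. For the same reason a count test by another tool and fits without 1 replicate were not run, and it is not known whether a single library decides a value. No pseudogene row was among the members. Base means of the members were 130 or more, and the deposited SE holds counting error and the spread between libraries together; members with an SE above 0.15, such as Mrps27 (0.20) and Mrpl15 (0.19), are the least precise.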

Other observations

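Of the members, 17 have a protein-coding neighbour that starts within 1000 bases on the opposite strand and is transcribed away from it, a head-to-head pair. The neighbours' median log2 fold change was -0.08, against -0.52 for their members, with 6 neighbours lower and 1 higher, where 17.4% of all genes tested are lower and 16.6% higher. Some pairs differed in direction or call. Mrps18b fell (-0.52) while Ppp1r10, 45 bases away, rose (0.52 ± 0.20, SE, adjusted p = 0.0279). Mrpl54 was not called (-0.04) while Apba3, 26 bases away, fell (-0.43 ± 0.10, SE, adjusted p = 7.28e-05). Mrps12 was not called (-0.24) while Sars2, the mitochondrial seryl-tRNA synthetase gene, fell (-0.61 ± 0.12, SE, adjusted p = 8.39e-06). Mrps27 and Ptcd2, another gene for a mitochondrial RNA-binding protein, both fell (-0.51 and -0.64). All of these fold changes and adjusted p-values are those of the authors' deposited table, and the difference within a pair was not tested.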
